A study of Rattus norvegicus with 2 samples.

Results

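Cycling myogenic progenitors are muscle precursor cells that carried both myogenic transcripts and transcripts of dividing cells. They were chosen from single-cell RNA-seq counts by a fixed rule on each barcode, the droplet tag that stands for 1 cell. A member had at least 500 unique molecular identifiers (UMIs, counted transcripts), at least 200 detected genes and at most 20% mitochondrial UMIs. It also had at least 2 of the 7 myogenic genes Pax7, Myf5, Myod1, Cdh15, Megf10, Asb5 and Fgfr4, at least 2 of the 5 cell cycle genes Top2a, Mki67, Cdk1, Ube2c and Nusap1, 0 or 1 UMI of Myog, and no UMI of Ptprc or Pecam1. The rule found 120 members among 23416 deposited barcodes, of which 21154 passed the depth and mitochondrial filters. Of the members, 60 came from a rat, 57 were rat cells of a rat-mouse chimera and 3 were mouse cells of that chimera.

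The series compared whole-body skeletal muscle of 1 Sprague-Dawley (SD) rat with that of 1 rat-mouse chimera, to examine which muscle cell types injected mouse cells had formed in a rat. The chimera was an SD rat that received, as a morula, mouse induced pluripotent stem cells (iPSCs) with the Dmd mdx mutation, edited by CRISPR/Cas9, and with Pax7-nGFP, a transgene that marks Pax7-expressing cells with nuclear GFP. Its rat cells were those of the SD host, whose own satellite cells were not ablated, and the SD rat received no mouse cells. Both muscles were digested with collagenase II and sorted for live cells with Calcein Violet, and neither age nor sex was used here. With 1 library per animal there were no replicates, so no difference between animals could be tested, and animal, digestion and library cannot be told apart. All intervals below are exact 95% intervals that cover counting error only.

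Satellite cells are the stem cells of skeletal muscle and are marked by the transcription factor Pax7. When they leave quiescence they express Myod1, divide as myoblasts, and then switch on Myog, the myogenin gene, leave the cell cycle and fuse into myofibres. Cyclins and cyclin-dependent kinases (CDKs) drive the divisions, CDK inhibitors such as the products of Cdkn1a and Cdkn1c end them, and Myod1 and Myf5 encode the factors that commit the cells to muscle.

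Genes of dividing cells are known to share promoter elements, namely the CCAAT box bound by the factor NF-Y, the TTTGAA core of the cell cycle genes homology region used by late cell cycle genes, and E2F sites of early ones. The 250 bases before the annotated start are shown for 4 genes that the results below turn on, 2 of them rule genes (Top2a and Cdk1), 1 a late mitotic gene (Cdc20) and 1 a replication gene (Mcm6). They are RefSeq sequences of the rat build GRCr8, whereas the counts were made on another build, mRatBN7.2. Capitals mark the CCAAT box, the core TTTGAA and the E2F letters TTTGGCGC or TTTCCCGC on either strand, and marked letters of different motifs did not overlap. Their positions were Top2a at chr10:84473094-84473343 on the minus strand, Cdk1 at chr20:19265043-19265292 on the plus strand, Cdc20 at chr5:137255800-137256049 on the minus strand and Mcm6 at chr13:42404353-42404602 on the minus strand.
Top2a: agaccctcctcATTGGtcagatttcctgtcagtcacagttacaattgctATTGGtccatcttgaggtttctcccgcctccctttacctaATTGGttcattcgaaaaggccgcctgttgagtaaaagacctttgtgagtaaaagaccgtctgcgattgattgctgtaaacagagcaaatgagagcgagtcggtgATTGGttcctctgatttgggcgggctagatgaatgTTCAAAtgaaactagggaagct
Cdk1: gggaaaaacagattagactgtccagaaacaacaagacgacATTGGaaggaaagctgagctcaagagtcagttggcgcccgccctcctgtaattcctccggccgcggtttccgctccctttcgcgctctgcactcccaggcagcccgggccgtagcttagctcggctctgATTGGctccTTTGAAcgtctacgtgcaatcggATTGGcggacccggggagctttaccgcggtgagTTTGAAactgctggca
Cdc20: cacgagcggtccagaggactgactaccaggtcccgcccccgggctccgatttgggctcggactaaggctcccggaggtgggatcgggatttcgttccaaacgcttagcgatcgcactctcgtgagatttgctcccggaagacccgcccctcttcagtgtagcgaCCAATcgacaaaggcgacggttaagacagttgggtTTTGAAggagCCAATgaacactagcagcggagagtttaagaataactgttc
Mcm6: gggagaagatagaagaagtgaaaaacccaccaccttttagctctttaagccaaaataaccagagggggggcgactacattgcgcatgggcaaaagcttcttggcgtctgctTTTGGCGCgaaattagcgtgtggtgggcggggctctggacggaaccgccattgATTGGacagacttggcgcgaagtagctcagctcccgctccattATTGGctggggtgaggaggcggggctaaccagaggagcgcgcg

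The Top2a window held 4 CCAAT and 1 TTTGAA, that of Cdk1 3 CCAAT and 2 TTTGAA, and that of Cdc20 2 CCAAT and 1 TTTGAA, none of them with E2F letters. The Mcm6 window held 2 CCAAT and 1 E2F site and no TTTGAA. Over the whole lists, 27 of 30 genes of G2 phase and mitosis could be matched to a promoter, of which 20 (74.1%) held CCAAT, 15 (55.6%) TTTGAA and 0 E2F letters. Of the 26 matched of 30 genes of DNA replication and S phase, 15 (57.7%) held CCAAT, 2 (7.69%) TTTGAA and 9 (34.6%) E2F letters. The shares among all 33469 rat promoters in the table were 34%, 16.2% and 1.21%. Among the 4112 matched of the 5084 genes with enough UMIs to be compared below, they were 36.5%, 10.5% and 3.02%. A match in these windows is a description of letters and not of binding.

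The SD rat library held 10117 barcodes with a median of 5373 UMIs and the chimera library 13299 with a median of 7407. Rat barcodes of the chimera had at most 20% of their UMIs on mouse genes and mouse barcodes at least 80%. Of the 120 members 0 were predicted doublets, and 2 further barcodes met the rest of the rule but lay between these species limits, 1 of them a predicted doublet. The libraries shared 43 barcode sequences, 0 of them among members. Members were deeply covered, with a median of 11829 UMIs (689 to 46213) in the SD rat, 12075 (3710 to 34127) in rat cells of the chimera and 11444 in its mouse cells. Non-cycling progenitors, which met the same rule but had none of the 5 cell cycle genes, had medians of 5919 and 7525.5 UMIs in the SD rat and in rat cells of the chimera.

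The 4 markers of the label are given as a description. The rule itself used all of them, so their detection in members is no check of the label. Top2a, encoding the topoisomerase that untangles DNA before mitosis, was found in 54 of 60 SD rat members and 47 of 57 chimera rat members, and Mki67, encoding the proliferation antigen Ki-67, in 59 and 56. Myod1 was found in 29 and 27, and Cdh15, encoding the muscle cadherin of satellite cells, in 41 and 46. After each barcode was thinned to 2000 UMIs, Top2a was found in 41.4% and 61.4% of members against 1.52% and 2.48% of endothelial barcodes, some of which divide too. Myod1 was found in 20.7% and 15.8% of members against 0.19% and 0% of these endothelial barcodes, cells that should lack it, whose unthinned medians were 3555 and 5493.5 UMIs. Endothelial barcodes had at least 2 of Pecam1, Cdh5, Kdr, Tie1 and Emcn, no Ptprc and fewer than 2 of the 7 myogenic genes. Their low Myod1 was thus partly set by this choice. Endothelial markers summed to 13 UMIs over the 60 SD rat members and 12 over the 57 chimera rat members, with Pecam1 at 0 by the rule. Markers of Schwann cells, myeloid cells and T or NK cells summed to 9, 23 and 0 UMIs in the SD rat members and to 11, 15 and 1 in the chimera rat members. The B cell list summed to 142 UMIs in the SD rat members, all from Ebf1, which is not particular to B cells, and to 63 in the chimera rat members. Erythroid markers summed to 49 and 20 UMIs. Higher sums were found for tenocyte markers, at 427 UMIs in the SD rat members and 28 in the chimera rat members, and for pericyte or smooth muscle markers, at 222 and 58 UMIs. The tenocyte UMIs of the SD rat were held by few barcodes, with 112 of 125 Fmod UMIs and 50 of 59 Tnmd UMIs in 1 barcode each, and Scx and Mkx were at 0 in the chimera rat members.

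Markers of fibro-adipogenic progenitors (FAPs), the connective tissue cells of muscle, were also present, with all 6 of 6 detected. They gave the largest sum of these lists, at 12034 UMIs in SD rat members and 3089 in chimera rat members. Their summed level in a member had a median of 1164 CPM (counts per 1000000 UMIs) and a highest value of 104055 in the SD rat, against 670 and 43514 in rat cells of the chimera. Pooled over all barcodes, members stood at 14336 CPM against 7945 in non-cycling progenitors of the SD rat. In rat cells of the chimera these were 4277 and 4422 CPM. Endothelial barcodes stood at 12488 CPM in the SD rat and 11882 CPM in rat cells of the chimera, so these markers were not particular to members. Barcodes with more than 1% of their UMIs on these markers numbered 10 of 60 and 5 of 57 members, and 13 of 246 and 15 of 218 non-cycling progenitors. All 6 of 6 myofibre markers were also detected, with sums of 5475 UMIs in SD rat members and 1669 in chimera rat members. Their median was 3844 CPM (highest 94417) over SD rat members and 1930 CPM (highest 10146) over chimera rat members. In non-cycling progenitors it was 7209 (highest 318625) and 3116 (highest 284743). In endothelial barcodes it was 12547 and 4080, above members in both rats. Values without these barcodes are given beside some of the results below, and their part in the others was not tested.

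With the species limits of the rule, cycling progenitors made up nearly the same share of progenitors in both rats. Of progenitors with 0 or 1 Myog UMI, 60 of 328 were cycling in the SD rat, or 18.3% (14.3 to 22.9), and 57 of 302 among rat cells of the chimera, or 18.9% (14.6 to 23.8). Among mouse cells of the chimera the share was 3 of 32, or 9.38% (1.98 to 25), an interval that holds both rat values. As a share of all barcodes kept, members were 0.668% in the SD rat, 0.672% of rat cells and 0.161% of mouse cells of the chimera. Without barcodes over 1% on FAP markers, 50 of 302 SD rat progenitors (16.6%) and 52 of 281 chimera rat progenitors (18.5%) were cycling. Without those over 2% on myofibre markers these were 56 of 285 (19.6%) and 57 of 289 (19.7%). The cycling shares of progenitors depend on depth. When every barcode was first thinned to 2000 UMIs the rule found 21 of 162 (13%) and 20 of 157 (12.7%) in the rats. It found 0 of 17 mouse progenitors, where a floor of 3 barcodes, which is not an exact limit, would be 17.6%. The share in rat cells of the chimera also depended on the species limits. With limits of 10% and 90% it was 35 of 141, or 24.8%, above its main interval.

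Most progenitors lay away from the cell cycle edge of the rule, but many lay near its myogenic edge. Of the 328 SD rat progenitors 246 had 0 of the 5 cell cycle genes, 22 had 1, 5 had 2, 1 had 3, 7 had 4 and 47 had all 5, and the corresponding counts of the 302 chimera rat progenitors were 218, 27, 11, 3, 7 and 36. Most barcodes therefore carried none or all of the 5 genes, and with 1 gene already taken as cycling the shares were 25%, 27.8% and 31.3% in the SD rat, the chimera rat and the mouse cells. Of the 7 myogenic genes, 11 of 60 SD rat members had exactly 2, 15 had 3, 19 had 4, 10 had 5 and 5 had 6, and of 57 chimera rat members 6 had 2, 13 had 3, 14 had 4, 17 had 5, 4 had 6 and 3 had all 7. Just outside the rule, 2 barcodes in each rat had 2 Myog UMIs, 4 in the SD rat and 6 in the chimera had 3 or more, and 16 and 14 had only 1 myogenic gene. Within it, 57 of 60 and 53 of 57 members had no Myog UMI at all.

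**Figure D1:**
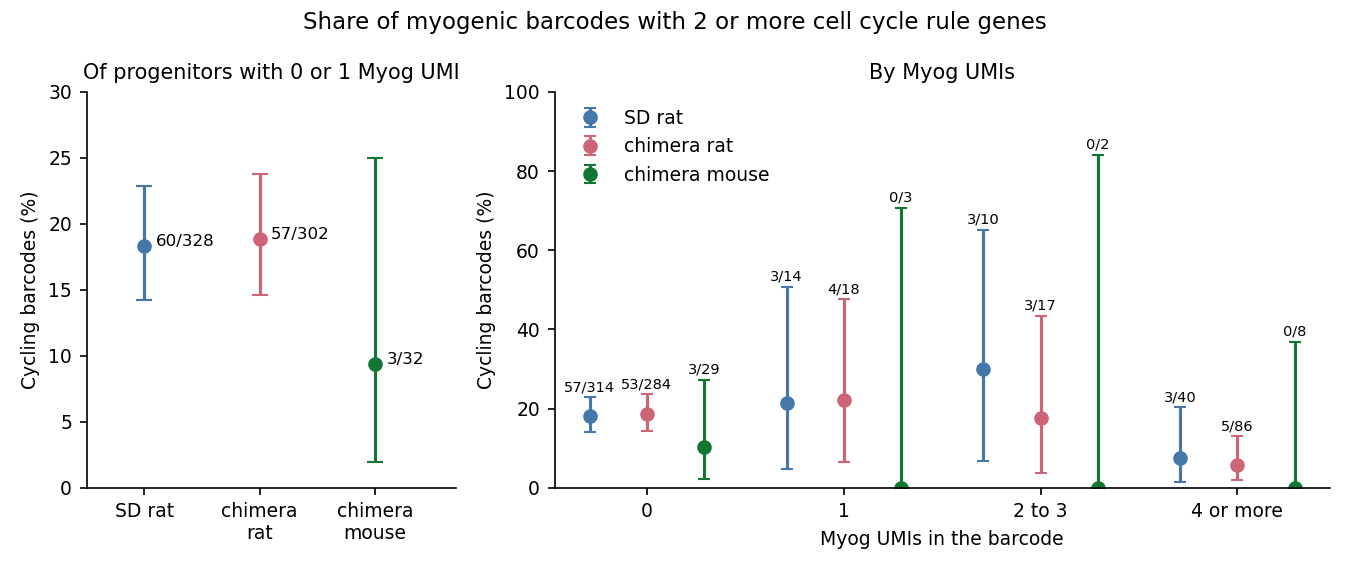
Share of barcodes with at least 2 of the 5 cell cycle genes, in % with exact 95% intervals, among progenitors with 0 or 1 Myog UMI (left) and by the number of Myog UMIs (right), with the counts printed beside each point. The SD rat and chimera rat shares lie at 18.3% and 18.9%, and those with 4 or more Myog UMIs at 7.5% and 5.81%.

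The cycling share was lower where Myog was high. In the SD rat it was 57 of 314 barcodes with 0 Myog UMIs, or 18.2% (14 to 22.9), 3 of 14 with 1, 3 of 10 with 2 or 3, and 3 of 40 with 4 or more, or 7.5% (1.57 to 20.4). In rat cells of the chimera it was 53 of 284 with 0, or 18.7% (14.3 to 23.7), 4 of 18 with 1, 3 of 17 with 2 or 3, and 5 of 86 with 4 or more, or 5.81% (1.91 to 13). Thus the intervals of the lowest and highest Myog classes did not overlap in the chimera but did in the SD rat. The barcodes with 4 or more Myog UMIs were the deeper ones, with medians of 13530.5 and 13483 UMIs against 6869.5 and 7941.5 with 0 Myog UMIs. The mouse cells gave 3 of 29 with 0 Myog UMIs and 0 of 3, 0 of 2 and 0 of 8 in the further classes, with upper limits of 70.8%, 84.2% and 36.9%.

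The 3 mouse members were described singly. The first, with 12879 UMIs, held UMIs of 5 myogenic and all 5 cell cycle genes, among them 3 of Pax7, 15 of Top2a and 31 of Ube2c, which encodes a ubiquitin-conjugating enzyme of mitosis. It was also the member with 3 UMIs of EGFP, the nuclear reporter carried by the injected iPSCs. The second, with 11444 UMIs, had 6 myogenic genes and 3 cell cycle genes, namely 4 UMIs of Mki67, 1 of Cdk1 and 2 of Ube2c. The third, with 6700 UMIs, had 3 myogenic and 2 cell cycle genes, at 3 UMIs of Cdk1 and 1 of Ube2c, so that the third mouse member sat at the edge of the rule. Another mouse barcode, with 3480 UMIs and 7 of Top2a, stayed outside it at 21% mitochondrial UMIs. Pericyte or smooth muscle markers summed to 43 UMIs in the 3 mouse members, from Acta2 and Notch3, with Rgs5, Abcc9, Kcnj8 and Myh11 at 0.

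Mouse cells were a minority of the cycling progenitors. Of 60 members of the chimera that could be given a species 3 were mouse, or 5% (1.04 to 13.9), against 22 of 240 non-cycling progenitors, or 9.17% (5.83 to 13.5), and 10 of 113 cells with at least 2 Myog UMIs, or 8.85% (4.33 to 15.7). All 3 intervals overlapped. Among endothelial barcodes the mouse share was 53.4%, and among endothelial barcodes with at least 2 of the 5 cell cycle genes it was 93 of 143, or 65% (56.6 to 72.8). The mouse share of cycling cells thus differed between the myogenic and the endothelial barcodes of the same library by more than counting error. The gap was not particular to cycling cells, since the mouse share of all progenitors with at most 1 Myog UMI was 9.58%. Barcodes between the species limits were left out of these shares. They numbered 647 among endothelial barcodes, 48 among those with at least 2 of the 5 cell cycle genes, and 2 among cycling progenitors. The intervals take barcodes of the same animal as independent.

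Members were also placed within the cycle by the 30 S phase genes and the 30 genes of G2 phase and mitosis (G2/M), lists that overlap with none of the rule genes. A member held a median of 18.5 S phase UMIs and 64.5 G2/M UMIs in the SD rat and of 17 and 53 in rat cells of the chimera. More S phase than G2/M UMIs were found in 14 of 60 SD rat members, or 23.3% (13.4 to 36), in 16 of 57 chimera rat members, or 28.1% (17 to 41.5), and in 1 of 3 mouse members. Most members of both rats thus leaned towards G2/M, and after thinning to 2000 UMIs the shares were 22.4% and 28.1%. Only 2 members in each rat lay within 2 UMIs of equal sums. The rule itself asked for genes that are mostly used in G2/M, so the lean of members is partly a choice of the rule. Among endothelial barcodes with at least 2 of the 5 cell cycle genes, more S phase than G2/M UMIs were found in 9 of 13 in the SD rat, or 69.2% (38.6 to 90.9), in 19 of 50 chimera rat barcodes, or 38% (24.7 to 52.8), and in 44 of 93 mouse barcodes, or 47.3% (36.9 to 57.9).

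**Figure D2:**
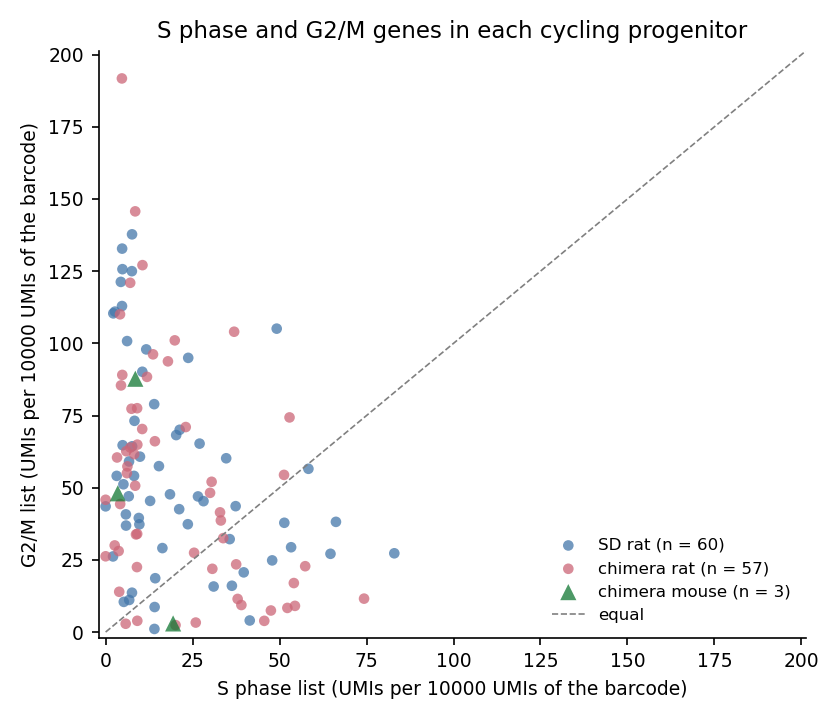
S phase list UMIs (horizontal) against G2/M list UMIs (vertical) per 10000 UMIs of each member, with SD rat in blue, chimera rat in red, the 3 mouse members as green triangles and the dashed line where both are equal. Most points lie above the line, with 14 of 60 SD rat and 16 of 57 chimera rat members below it.

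The split separated genes that the lists contain. Pcna, the sliding clamp of DNA polymerases, was at 670 CPM in S-leaning and 131 CPM in G2/M-leaning members of the SD rat, and at 545 and 122 CPM in those of the chimera. Ccnb1, encoding the cyclin B of mitotic entry, was at 29.7 against 216 CPM and at 27.5 against 359 CPM. Both belong to the lists that made the split and only describe it. Among genes outside these lists, Myod1 was at 136 and 137 CPM in S-leaning and G2/M-leaning members of the SD rat and at 110 and 118 CPM in those of the chimera. Cdh15 was at 119 against 118 CPM and 154 against 161 CPM. The levels of both genes thus differed between the S-leaning and G2/M-leaning members by less than their counting intervals. Myf5 was at 59.3 CPM (28.5 to 109) against 101 CPM (78.7 to 128) and at 71.6 CPM (38.1 to 122) against 124 CPM (94.9 to 158), also with overlapping intervals.

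The contrast of cycling with non-cycling progenitors follows from the rule and is given as a description. UMIs were summed over the barcodes of a class and scaled to CPM, and a log2 ratio compares (CPM + 1) of 2 classes. Of 5084 genes with at least 50 UMIs in each rat, 241 (4.74%) were at least 2-fold higher and 69 (1.36%) at least 2-fold lower in cycling progenitors in both rats, and 4 passed 2-fold in opposite directions. The median log2 ratio of all 5084 genes was 0.01 in the SD rat and 0.06 in rat cells of the chimera. Nothing is read from the counts per list below, since the rule chose both classes by genes of the same programme. Where 1 barcode gave a large share of the UMIs of a gene, its UMIs are given.

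**Figure D3:**
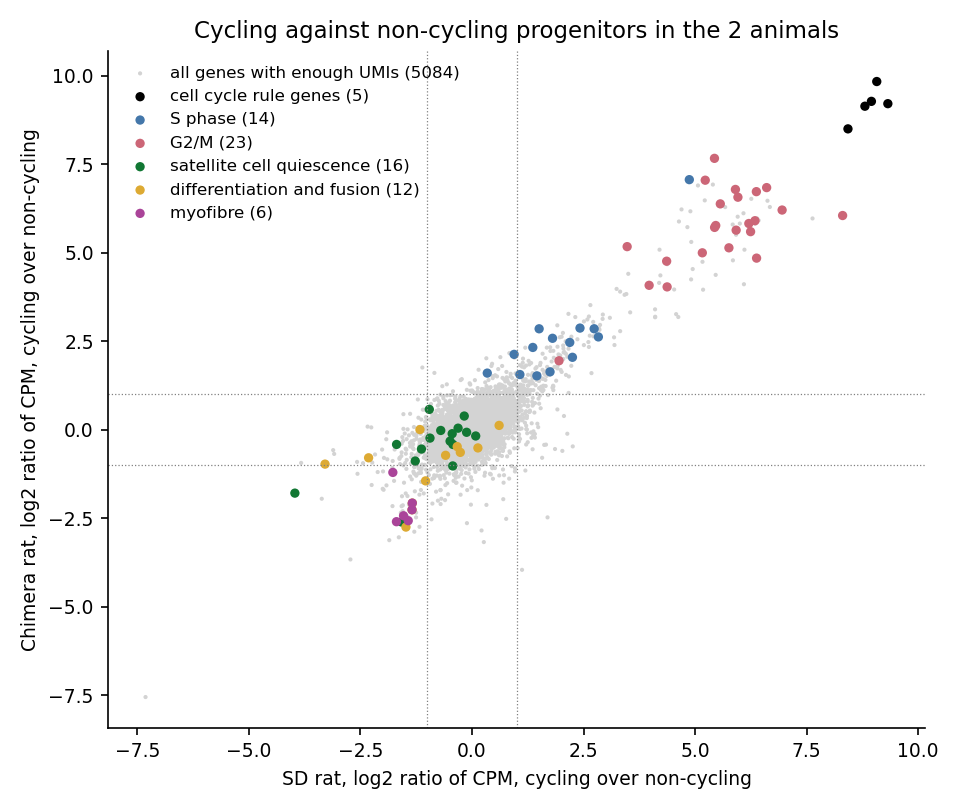
Log2 ratio of CPM, cycling over non-cycling progenitors, in the SD rat (horizontal) and in rat cells of the chimera (vertical) for 5084 genes, with the named lists in colour and dotted lines at 2-fold. The 23 G2/M genes and 12 of 14 S phase genes lie past 2-fold in both rats, and the 5 rule genes lie highest, at ratios that depend on the pseudocount of 1 CPM since non-cycling cells had none of their UMIs.

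The 5 rule genes had no UMI in non-cycling progenitors by construction. In members Top2a stood at 537 CPM (489 to 589) in the SD rat and 915 CPM (845 to 989) in rat cells of the chimera, and Mki67 at 639 (586 to 695) and 593 CPM (537 to 653). Cdk1, encoding the kinase of mitotic entry, stood at 343 and 361 CPM, Ube2c at 494 and 620 CPM, and Nusap1, encoding a spindle protein, at 447 and 564 CPM. The intervals of Top2a, Ube2c and Nusap1 lay apart between the rats, higher in the chimera, while those of Mki67 and Cdk1 overlapped. Members were chosen by detection of these same genes, and animal and library cannot be told apart. No difference between the rats is therefore read from these levels.

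Apart from the rule genes, the listed group furthest from non-cycling progenitors by its median was that of G2 phase and mitosis. Of 30 listed genes 23 had enough UMIs, and all 23 were at least 2-fold higher in both rats. Their median log2 ratios were 5.76 and 5.77. With genes at 0 in non-cycling cells set to a floor of 3 counts, the SD rat median was 5.57. Ccnb1 was at 179 CPM (151 to 210) against 3.15 in the SD rat and at 272 (234 to 314) against 4.19 in rat cells of the chimera, and Cdc20, the activator of the anaphase-promoting complex, at 280 (245 to 318) against 1.89 and at 320 (279 to 365) against 1.79. Ccna2, encoding cyclin A, was at 123 CPM against 0 in the SD rat, a difference of at least 65-fold against the limit of 3 counts in the class, and at 117 against 0.598 in the chimera. Birc5, encoding survivin of the chromosomal passenger complex, had log2 ratios of 5.96 and 6.57, and Cenpf, encoding a kinetochore protein, of 5.90 and 6.79. The smallest difference of those named was that of Cks1b, a CDK subunit also used before mitosis, at 1.95 in both rats.

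Replication genes were higher by smaller factors. Of 30 S phase genes 14 had enough UMIs, 12 of them at least 2-fold higher in both rats, with medians of 1.78 and 2.39. Mcm6, a subunit of the replicative helicase, was at 46.5 CPM (33 to 63.5) against 12.6 in the SD rat and at 83.9 (63.7 to 108) against 13.2 in the chimera, and Mcm3, another subunit, had log2 ratios of 2.19 and 2.47. Mcm5 stayed under the UMI minimum, at 22.6 against 4.41 CPM and 37.6 against 2.39 CPM. Rrm2, the regulated subunit of ribonucleotide reductase, was at 120 CPM against 3.15 in the SD rat (log2 ratio 4.87, 3.99 to 6.91). In the chimera it was at 133 CPM against 0, or 74.1-fold higher with the 0 set to the floor of 3 counts. Pcna, which non-cycling progenitors also carried at 113 and 78.4 CPM, had ratios of only 1.07 (0.78 to 1.38) and 1.56 (1.23 to 1.91). Dut, encoding the enzyme that removes dUTP, had ratios of 2.83 and 2.62.

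The chromatin and tubulin list of 18 genes had 13 with enough UMIs, 12 of them higher in both rats, with medians of 3.09 and 3.16. Stmn1, encoding the microtubule regulator stathmin, was at 2125 CPM against 115 in the SD rat and 2245 against 126 in rat cells of the chimera. After thinning to 2000 UMIs it was found in 98.3% and 93% of members, 12.9% and 13.4% of non-cycling progenitors and 38.5% and 39.2% of endothelial barcodes. It was thus found in nearly every member at equal depth. H2az1, a histone variant, had log2 ratios of 2.64 and 2.66, Lmnb1, lamin B1, of 3.32 and 3.90, and Tuba1b, an alpha-tubulin, of 1.50 and 1.58. The counts of these cell cycle groups stayed the same without barcodes rich in FAP or in myofibre markers.

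Of the genes outside all lists, those furthest above non-cycling progenitors in both rats included Sgo2, Ska1, Kifc1, Cep55, Hist1h2an, Pclaf, Racgap1, Depdc1, Pimreg, Spc24 and Ckap2. Sgo2, which encodes the shugoshin that guards cohesin at centromeres, was at 222 CPM against 1.26 in the SD rat and 194 against 1.20 in the chimera, from 2 UMIs in each non-cycling class. Ska1, of the kinetochore, was at 101 CPM against 0 in the SD rat, and Kifc1, a mitotic kinesin, at 91.1 against 0 in the chimera. With the 0 set to the floor of 3 counts these were folds of 53.6 and 50.7. Spc24, of the NDC80 complex, was at 345 against 5.04 and 321 against 4.79 CPM, and Pclaf, a partner of PCNA, at 294 against 2.52 and 286 against 3.59 CPM.

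The genes that restrain or license the cycle did not move as one group. Of 15 genes of CDK inhibition and cell cycle exit 13 had enough UMIs, and 3 were at least 2-fold higher in both rats, with list medians of 0.28 and 0.12. Cdkn2c, encoding the INK4 inhibitor p18, was at 143 CPM (119 to 171) against 18.9 in the SD rat and 188 (157 to 223) against 25.7 in the chimera, with log2 ratios of 2.86 (2.33 to 3.55) and 2.82 (2.36 to 3.40). Cdkn2d, encoding the INK4 inhibitor p19, had ratios of 2.87 (2.44 to 3.41) and 2.96 (2.54 to 3.48). Cdkn3 encodes a phosphatase that acts on CDKs in dividing cells, and it had ratios of 5.20 (4.70 to 5.92) and 5.04 (4.63 to 5.61). These 3 members of the inhibitor list were thus higher beside the mitotic genes in both rats.

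The CIP/KIP inhibitors stood closer to their level in non-cycling progenitors. Cdkn1a, encoding p21, was at 255 CPM (222 to 291) against 155 in the SD rat and 189 (158 to 225) against 143 in the chimera, with ratios of 0.72 (0.45 to 0.99) and 0.40 (0.09 to 0.72). Cdkn1b, encoding p27, was at 104 against 85 CPM and 111 against 76 CPM. Cdkn1c, encoding p57, was at 279 against 172 CPM in the SD rat, where 97 of its 234 UMIs came from 1 barcode, and at 201 against 184 CPM in the chimera. Btg2, an antiproliferative gene, was at 1094 against 1611 CPM and 1398 against 1949 CPM, with ratios of -0.56 and -0.48. None of these 4 genes passed 2-fold in either rat.

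Of 17 genes of the cyclin D, CDK4/6 and E2F list 9 had enough UMIs and 0 passed 2-fold in both rats, with medians of 0.14 and 0.28. Ccnd1, encoding the cyclin D of growth factor signalling, was at 152 CPM (127 to 181) against 138 in the SD rat and 156 (128 to 189) against 129 in the chimera, so that non-cycling progenitors carried it at a like level. Ccnd3, the cyclin D of later myoblasts, had ratios of 0.86 (0.58 to 1.14) and 0.65 (0.37 to 0.94), and Cdk4, its kinase, of 1.07 (0.79 to 1.37) and 0.69 (0.41 to 0.97). Rb1, encoding the retinoblastoma protein that blocks E2F, was at 53.6 against 39 CPM and 76.6 against 43.1 CPM. Of 15 genes of DNA damage and p53, 7 had enough UMIs and Atad2 and H2ax, both also raised in dividing cells, were higher, while Mdm2, encoding the p53 antagonist, had ratios of -1.06 (-1.38 to -0.76) and -0.99 (-1.35 to -0.66).

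Of the 7 myogenic rule genes 0 passed 2-fold in both rats, with medians of -0.70 and -0.29. Pax7 was at 63.1 CPM (47.3 to 82.6) against 145 (127 to 165) in the SD rat and at 104 (81.4 to 131) against 161 (142 to 181) in rat cells of the chimera, with log2 ratios of -1.18 (-1.66 to -0.76) and -0.62 (-1.02 to -0.25). In the chimera 49.7% of the Pax7 UMIs of rat progenitors lay on the mouse gene, and rat and mouse rows were added by the rule. Myf5 was at 92.9 against 151 CPM in the SD rat, with 22 of its 78 UMIs from 1 barcode, and 110 against 181 CPM in the chimera. Myod1 had ratios above 0, at 137 CPM (113 to 164) against 96.3 (81.6 to 113) and 116 (91.7 to 144) against 76 (63.3 to 90.4), with ratios of 0.50 (0.15 to 0.87) and 0.60 (0.18 to 1.02). Cdh15 had ratios of -0.98 (-1.32 to -0.66) and -0.29 (-0.62 to 0.03). Fgfr4, a fibroblast growth factor receptor of myogenic cells, had ratios of 0.21 (-0.19 to 0.62) and 0.51 (0.12 to 0.90), and Asb5 of -0.19 (-0.47 to 0.08) and -0.95 (-1.29 to -0.63). Because a barcode needed only 2 of these genes, their order across classes was partly set by the rule.

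The mix of Pax7 and Myod1 is given as a description, since both are rule genes. At 2000 UMIs, barcodes with Pax7 and without Myod1 were 6 of 58 members in the SD rat, or 10.3% (3.89 to 21.2), against 52 of 232 non-cycling progenitors, or 22.4% (17.2 to 28.3). In rat cells of the chimera they were 7 of 57, or 12.3% (5.08 to 23.7), against 55 of 216, or 25.5% (19.8 to 31.8). Without thinning the values were 23.3% and 31.6% of members against 41.1% and 46.8% of non-cycling progenitors. In endothelial barcodes, at 2000 UMIs, such a pattern was found in 0% and 0.118%, partly because these were chosen with fewer than 2 myogenic genes. The share was lower in members of both rats, but the intervals of the classes overlapped in each.

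Of 25 satellite cell quiescence genes 16 had enough UMIs, 0 were higher and 2 were at least 2-fold lower in both rats, with medians of -0.60 and -0.28. Chrdl2, encoding a secreted antagonist of bone morphogenetic proteins, had 1 UMI in SD rat members and 5 in chimera rat members, at 1.19 against 33.4 CPM and 7.23 against 27.5 CPM, with ratios of -3.97 (-10.14 to -2.27) and -1.79 (-3.62 to -0.60). Apoe, encoding apolipoprotein E, was at 293 against 879 CPM, with 197 of the 246 member UMIs from 1 barcode, and 136 against 834 CPM. Spry1, an inhibitor of receptor kinase signalling that satellite cells carry at rest, had ratios of -0.43 (-0.85 to -0.04) and -1.02 (-1.53 to -0.57), and Sdc4, encoding a surface proteoglycan of satellite cells, of -1.27 and -0.89. Without barcodes rich in myofibre markers 15 genes of this list were tested, and only Apoe was at least 2-fold lower in both rats. Without FAP-rich barcodes 16 were tested, and Chrdl2 and Sdc4 were lower in both. Sdc4 had not passed 2-fold in both rats in the main values. The receptor gene Calcr, a quiescence gene, was at 16.7 against 45.9 CPM in the SD rat and at 18.8 against 17.4 CPM in the chimera, so that the direction was not shared.

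The Notch list, the pathway that keeps satellite cells undifferentiated, had 8 of 16 genes with enough UMIs and 0 past 2-fold in both rats, with medians of -0.26 and 0.15. The target gene Hes1 was at 130 against 147 CPM and 121 against 92.7 CPM, Heyl at 31 against 51 CPM and 47.7 against 48.5 CPM, and the receptor gene Notch1 at 47.7 against 49.7 CPM and 56.4 against 47.3 CPM. Growth factor receptors and signals had 0 of 15 tested genes past 2-fold in both, satellite cell adhesion and surface genes 0 of 14, ribosome biogenesis 0 of 15 and mitochondrial respiration 0 of 14. As examples, Npm1, of a ribosome assembly chaperone, was at 710 against 725 CPM and 747 against 824 CPM, and Cox4i1, of a respiratory subunit, was at 965 against 1058 CPM and 1026 against 1017 CPM.

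Part of the differentiation genes were lower in members. Of 30 listed genes only 12 had enough UMIs, of which 0 were higher and 4 (Mef2c, Acta1, Myl1 and Ckm) at least 2-fold lower in both rats, with medians of -1.10 and -0.76. Mymk and Mymx, which encode the fusion proteins myomaker and myomixer, had 1 and 0 UMIs in SD rat members and 0 and 1 in chimera rat members, and Tnnt2, a troponin of early myotubes, 0 and 1. Acta1, encoding skeletal actin, was at 2530 against 6430 CPM in the SD rat, with 695 of the 2124 member UMIs in 1 barcode, and 906 against 4358 CPM in the chimera. All 6 of 6 myofibre markers were lower in members in both rats, with medians of -1.48 and -2.35, and so was Eno3, the muscle enolase, the only such gene of 13 tested for glycolysis. With barcodes over 2% myofibre markers left out, 4 of 60 and 0 of 57 members and 35 of 246 and 13 of 218 non-cycling progenitors, 0 of 10 differentiation genes, 0 of 5 myofibre markers and 0 glycolysis genes passed 2-fold. The medians were then -0.77 and -0.44 for differentiation and -0.96 and -0.45 for the myofibre markers, on which the filter itself was set. The genes lower in both rats numbered 35 of 4882 tested in place of 69 of 5084. Of the 69, 28 stayed lower and 16 had too few UMIs to be compared.

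Markers of FAPs, tenocytes and pericytes had median ratios of opposite sign in the rats, with 0 markers past 2-fold in the same direction in both. The 6 FAP markers had medians of 0.55 in the SD rat and -0.13 in the chimera, and without barcodes over 1% on these same markers the 4 that were still tested had medians of -1.27 and -0.08. The 2 tested pericyte or smooth muscle markers, Rgs5 and Acta2, had medians of 1.19 and -2.16, and the 2 tested without the FAP-rich barcodes had medians of 0.47 and -2.82. The only tenocyte marker tested, Thbs4, had ratios of 0.61 and -1.29 and did not reach the UMI minimum in both rats without them.

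The 12 genes furthest below non-cycling progenitors outside the lists were Apod, Tceal7, Gal, Myot, Kdm5b, C1qtnf5, Trdn, Cox6a2, Myoz1, Ankrd23, Filip1 and Mybpc2, several of which are genes of the contractile fibre. Apod, encoding apolipoprotein D, had 0 UMIs in SD rat members and 1 in chimera rat members, but 233 of the 252 and 564 of the 768 UMIs of non-cycling progenitors came from 1 barcode each. More evenly spread was C1qtnf5, encoding a secreted C1q family protein, at 38.1 CPM (26.1 to 53.8) against 154 and 44.8 (30.5 to 63.6) against 148, found in 120 of 246 and 96 of 218 non-cycling barcodes with at most 12 UMIs in any. Kdm5b, a histone demethylase gene, had ratios of -1.78 (-2.99 to -0.90) and -2.16 (-4.27 to -0.89), from 10 and 4 member UMIs. Filip1, a filamin-interacting gene, was at 20.3 against 79.3 CPM and 27.5 against 83.8 CPM.

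The next step of the lineage was given by 50 SD rat and 103 chimera rat barcodes with at least 2 Myog UMIs and the same myogenic rule, cycling or not, whose medians of 12585.5 and 12444 UMIs were close to those of members. Against members, 182 of 4130 genes (4.41%) were at least 2-fold higher and 364 (8.81%) lower in the Myog-positive cells of both rats. All 24 tested G2/M genes, all 12 tested S phase genes and 12 of 13 chromatin and tubulin genes were lower, and 11 of 18 tested differentiation genes were higher, as follows from a choice by Myog. Outside these groups the members stood between resting and differentiating cells for some genes and apart from both for others.

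Of the 13 tested genes of the exit list Cdkn1c alone was at least 2-fold higher in Myog-positive cells than in members of both rats. It was at 279 CPM (244 to 317) in SD rat members and 8124 CPM (7922 to 8329) in Myog-positive cells, and at 201 (169 to 237) and 5682 CPM (5554 to 5812) in rat cells of the chimera, log2 differences of 4.86 (4.68 to 5.06) and 4.81 (4.58 to 5.07). At 2000 UMIs it was found in 90% and 85.4% of Myog-positive barcodes, 20.7% and 24.6% of members and 14.1% and 9.46% of endothelial barcodes, and without thinning in 48 of 50 and 97 of 103 Myog-positive barcodes. Cells that were both cycling and Myog-positive lay in between, at 960 CPM over 6 SD rat barcodes and 4094 CPM over 8 chimera rat barcodes, with 59 of 152 and 265 of 589 UMIs in 1 barcode, whereas Myog-positive cells with none of the 5 cell cycle genes reached 10323 CPM over 37 and 5789 CPM over 87 barcodes. The 3 classes of the SD rat and of the chimera thus kept the same order. Cdkn1a, by contrast, was at 255 against 235 CPM and 189 against 278 CPM, with differences of -0.12 (-0.41 to 0.18) and 0.55 (0.26 to 0.85).

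Several regulators differed between the cycling and the Myog-positive state. Rb1 was at 53.6 CPM (39.1 to 71.7) in members and 249 (215 to 288) in Myog-positive cells of the SD rat, and at 76.6 (57.4 to 100) and 239 (213 to 267) in the chimera. Ccnd1 was at 152 against 47.5 CPM and 156 against 39.5 CPM, and Mest, an imprinted gene of growing mesoderm, at 567 against 161 CPM and 675 against 110 CPM. Members thus shared their Ccnd1 and Mest levels with non-cycling progenitors, which held 138 and 129 CPM of Ccnd1 and 638 and 595 CPM of Mest. Pax7 was at 10.6 and 21.3 CPM and Myf5 at 7.92 and 26.6 CPM in Myog-positive cells, below members in both rats, while Myod1 was still at 93.7 and 109 CPM. Cdkn2c, Cdkn2d and Cdkn3 were each at least 2-fold lower in Myog-positive cells than in members of both rats, with Cdkn2c at 29 and 27.3 CPM. Met, the receptor gene for hepatocyte growth factor, and Hes6, a Hes family gene of differentiating myoblasts, were each at least 2-fold higher and Igf1, Hes1, Vcam1 and Chodl lower in Myog-positive cells of both rats.

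**Figure D4:**
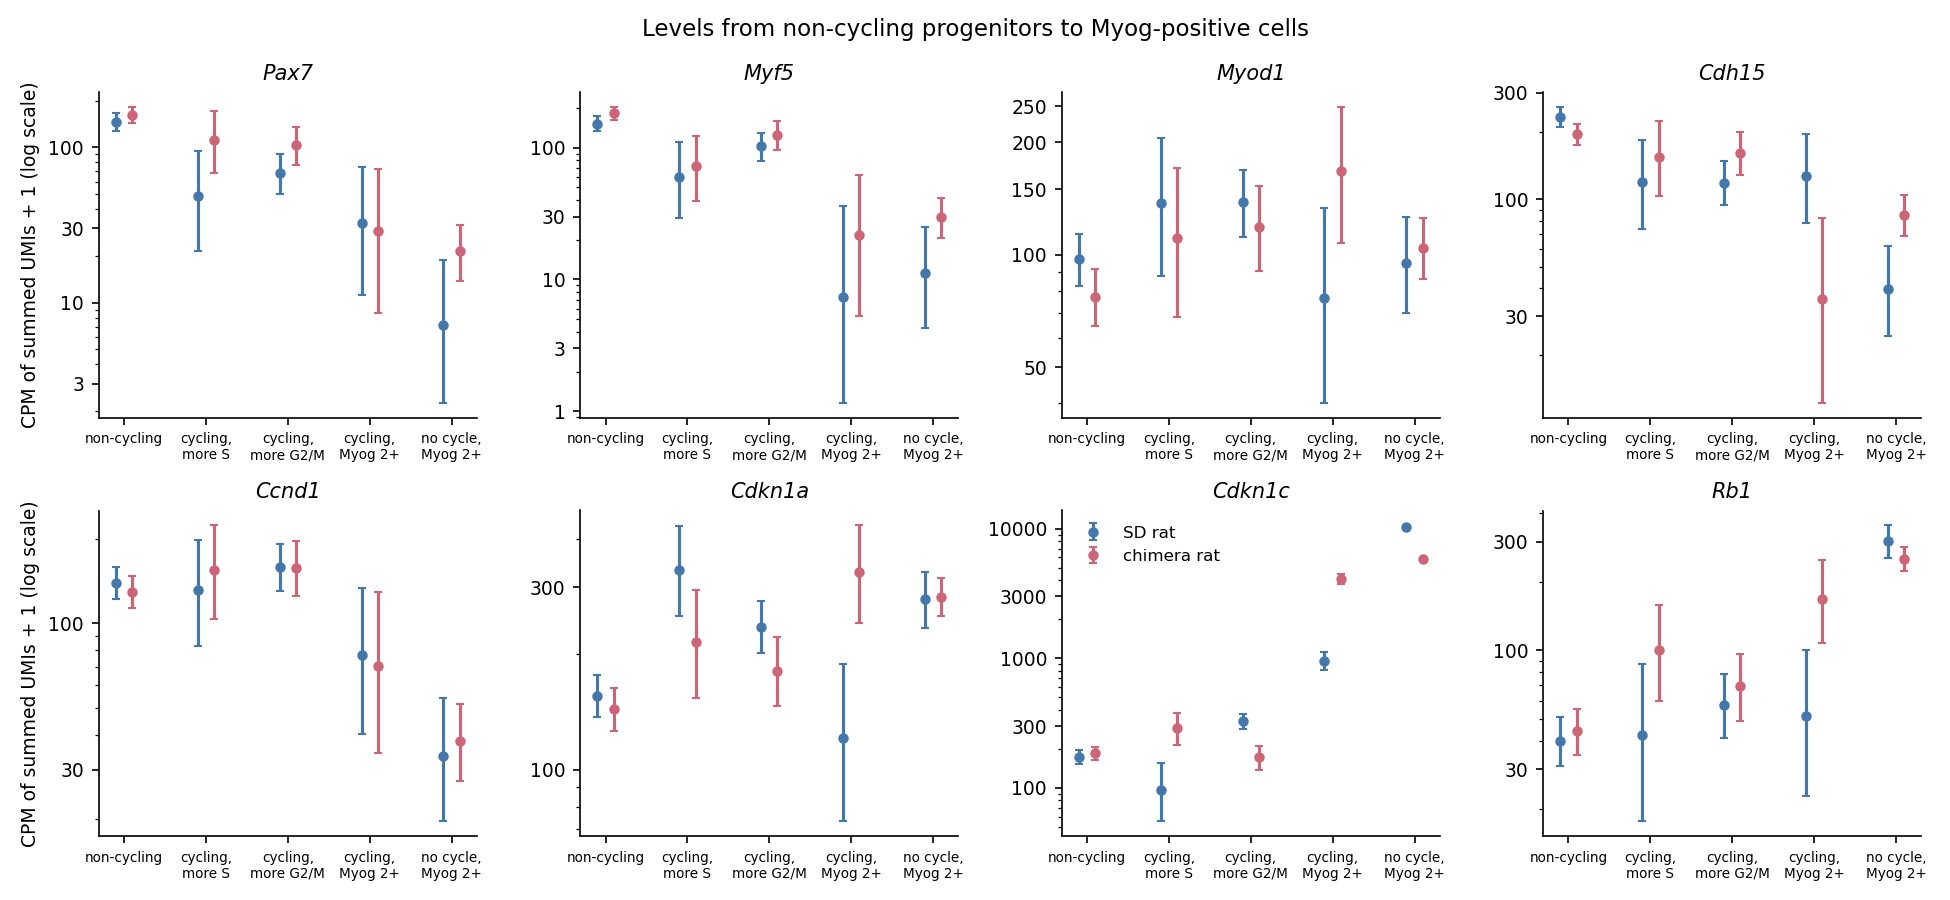
CPM of summed UMIs plus 1 on a log axis for 8 genes in 5 classes of SD rat (blue) and chimera rat (red) barcodes, from non-cycling progenitors through S-leaning and G2/M-leaning members to Myog-positive cells with and without cell cycle genes, with exact 95% Poisson intervals. Pax7 and Myf5 are lowest in the Myog-positive classes, and Cdkn1c reaches 10323 and 5789 CPM in the last class.

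Members of the chimera were close to those of the SD rat in most genes. Of 4341 genes with at least 50 UMIs over both, 117 (2.7%) were at least 2-fold higher and 183 (4.22%) lower in chimera rat members, the median log2 ratio was 0.04 and the quartiles were -0.24 and 0.28. Of the 28 tested G2/M genes, 13 tested cell cycle exit genes, 13 ribosome biogenesis genes and 14 respiration genes 0 passed 2-fold in either direction, and 1 of 19 S phase genes did. Medians of these lists lay between -0.05 and 0.15. Other lists held genes at least 2-fold lower in the chimera, namely 3 of 5 tested FAP markers (median -1.18), 3 of 3 tenocyte markers (-3.74), 2 of 2 pericyte or smooth muscle markers (-3.07), 4 of 5 myofibre markers (-1.42) and 3 of 9 differentiation genes (-0.57), with 0 genes of these lists higher. The myogenic rule genes differed by less than 2-fold but for Megf10, encoding a phagocytic receptor of satellite cells. It was at 23.8 CPM (14.6 to 36.8) in the SD rat and 85.3 (64.9 to 110) in the chimera. Members were chosen by detection of these genes, so no difference between the rats is read from their levels.

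The genes furthest apart between the animals lay mostly on rows of the other species or were apart in non-cycling progenitors too. The highest in the chimera, Hmgb1, Gphn, Nmnat2, Lars2 and Camk1d, had between 98.6% and 100% of their UMIs in rat progenitors on the mouse row, and Hmgb1 had 0 UMIs in SD rat members against 513 CPM in the chimera. The lowest, ENSRNOG00000051885, AABR07046956.1, Atp13a4, Hs6st3 and Glis1, had log2 ratios of the same sign in non-cycling progenitors, from -11.00 to -3.76. With genes over 5% on the mouse row left out, 44 of the 2819 genes still tested were higher and 123 lower. Leaving out FAP-rich barcodes gave 93 lower of 3576 tested genes in place of 183 of 4341. Of the 183, 71 stayed lower and 84 had too few UMIs to be compared.

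A few named genes differed between the rats by more than counting error. Ncam1, encoding the neural cell adhesion molecule of satellite cells and myoblasts, was at 255 CPM (222 to 291) in SD rat members and 458 (409 to 512) in chimera rat members, a log2 ratio of 0.84 (0.59 to 1.10), against 0.24 in non-cycling progenitors. The replication-dependent histone gene Hist1h2an was at 1571 CPM (1488 to 1658) in SD rat members and 474 (424 to 528) in those of the chimera, with ratios of -1.73 (-1.91 to -1.55) in members and -0.06 in non-cycling progenitors. Among imprinted growth genes, of which 9 of 14 were tested, H19 was at 432 against 165 CPM and Igf2, the neighbouring growth factor gene, at 208 against 89.6 CPM, ratios of -1.39 (-1.71 to -1.08) and -1.21 (-1.66 to -0.79). Both were also lower in non-cycling progenitors of the chimera, at -0.87 and -0.97. With 1 animal on each side these differences cannot be told apart from differences between libraries.

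The dystrophin complex was examined because the injected cells carried an edited Dmd gene. Of its 14 genes 8 had enough UMIs, and 0 passed 2-fold in both rats between cycling and non-cycling progenitors. Dmd itself was at 21.4 CPM (12.7 to 33.9) against 106 in the SD rat, where 49 of the 169 non-cycling UMIs came from 1 barcode, and at 60.7 (43.8 to 82.1) against 58 in rat cells of the chimera, so that the rats did not share a direction. The 3 mouse members held 13, 3 and 4 Dmd UMIs. Utrn, encoding the related utrophin, had ratios of -0.42 (-0.88 to 0.02) and 0.21 (-0.25 to 0.66), and Dag1, encoding dystroglycan, was at 502 against 546 CPM and 532 against 560 CPM. These counts are of the 3′ ends of transcripts and do not read the edited part of the gene.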

How the data were processed

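Droplet single-cell RNA-seq of live-sorted cells from 2 muscle libraries was analysed, 1 of an SD rat and 1 of a rat-mouse chimera. The authors deposited raw UMI counts per gene and barcode, not normalized, and the submitters' processing notes name Cell Ranger 7.1.0 and the builds mRatBN7.2 and GRCm39. The chimera was mapped to a combined rat, mouse and EGFP reference and the SD rat to the rat alone, so rat reads could move to mouse genes in the chimera only. Rat and mouse rows of a symbol were therefore added. Barcodes were filtered by the rule given above, and predicted doublets (Scrublet in scanpy 1.11.5, expected rate 0.08, each library apart) numbered 164 of 8980 (1.83%) and 444 of 12174 (3.65%) and were kept in the main values. No columns of other samples were present among the files used.

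UMIs were summed over the barcodes of each class and scaled to counts per 1000000 UMIs (CPM), and log2 ratios were taken with a pseudocount of 1 CPM for genes with at least 50 UMIs over both classes. "Called" means past 2-fold. Shares carry Clopper-Pearson intervals, sums exact Poisson intervals and ratios intervals from the exact binomial of the summed counts. No p-value was computed, as each group held 1 library. Genes of the lists could be named; outside them the 12 highest and 12 lowest by the smaller log2 ratio of the rats, found in at least 10 barcodes of the higher class in each, and the 5 highest and 5 lowest between the animals. A gene that this rule named is not reported here. The members, the rule and all gene lists were chosen with earlier results of these data known. The scripts were tested on simulated data. Promoters were searched in RefSeq windows of 250 bases (4112 of 5084 tested genes matched). Python 3.11.15, numpy 2.4.6, scipy 1.17.1 and pandas 2.3.3 were used.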

Additional observations from a re-analysis of the deposited data

Results flagged for a closer look

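EGFP, a sequence outside the comparisons, was counted 8 times in the mouse progenitors with 0 or 1 Myog UMI, 3 of these in 1 cycling barcode, 2 in 7 barcodes with 1 cell cycle gene and 3 in 22 non-cycling ones. It was at 0 in the rat progenitors and in the 1074 mouse endothelial barcodes, and the whole library held 9 UMIs.

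Genes of other cell types had log2 ratios of cycling over non-cycling progenitors of opposite sign in the rats, and the differences between the rats were not tested. In the SD rat and in rat cells of the chimera these were 0.96 and -1.09 for Dcn, 0.45 and -1.09 for Lum, 0.61 and -1.29 for Thbs4, 1.12 and -3.96 for Rgs5 and 0.40 and -1.25 for Ebf1. Dcn and Lum are markers of fibro-adipogenic progenitors, and 10 of 60 members of the SD rat and 5 of 57 of the chimera had over 1% of their UMIs on that list. Without these barcodes, a filter set on the same markers after seeing the data, the median ratio of the 4 markers of that list still tested was -1.27 in the SD rat and -0.08 in the chimera, against 0.55 and -0.13 over all 6 with them.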

How the results depend on the processing

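No paired analysis was possible because each group held 1 library, and no replicate was left out since none existed. Of the values that answer a comparison, 116 were labelled as unchanged under the alternatives and 36 as moved. Of the values of named genes 3346 were labelled as unchanged, 366 as moved and 4 as reversed. The unchanged label was loose for small classes. The SD rat share with 2 to 3 Myog UMIs kept it at 10% (1 of 10) against 30% (3 of 10) in the main values. That setting asked for 3 or more of the 5 cell cycle genes. Mouse classes at 0 of 3 and 0 of 2 also kept the label, but were too small to show a move. The cause of a move or reversal was not tested in any case. The cycling share of progenitors moved with at least 1 cell cycle gene to 25%, 27.8% and 31.3% in the SD rat, the chimera rat and the mouse cells, and with thinning to 2000 UMIs before the rule to 13%, 12.7% and 0%. Among barcodes with 0 Myog UMIs thinning gave 12.8% and 14.2%. Species limits of 10% and 90% gave 24.8% in chimera rat cells. Genes higher in cycling progenitors numbered 406 of 7754 tested with at least 20 UMIs and 75 of 1626 with at least 200. They numbered 767 of 13294 without a UMI minimum and 47 of 1428 after thinning, against 241 of 5084 in the main values. Genes lower numbered 118, 27, 423 and 41 of the same tested genes under these. They numbered 44 of 5084 with a pseudocount of 10 CPM and 105 of 5084 with the top barcode of each gene left out. Without barcodes over 2% myofibre markers, a filter chosen after seeing the data, they numbered 35 of 4882. In Myog-positive cells against members, 33 were higher and 72 lower of 595 after thinning. With at least 200 UMIs these were 72 and 108 of 1149. Between the animals, 73 of 4341 were higher with a pseudocount of 10 CPM and 309 of 7127 with at least 20 UMIs. With at least 200 UMIs there were 20 of 1162, and without a minimum 2235 of 13789. Rat rows only gave 77 of 4243, thinning 11 of 654, and leaving out genes over 5% on the mouse row 44 of 2819. Genes lower numbered 375, 69 and 1983 at the UMI minimums and 32 after thinning, of the same tested genes. They numbered 93 of 3576 without barcodes over 1% FAP markers, a filter chosen after seeing the data. The reversed values were Trdn in chimera rat cells after thinning (0.11), Pfkp in SD rat Myog-positive cells after thinning (0.20), and Camk1d (-0.50) and Lars2 (-0.039) with rat rows only. Depth limited the lists: after thinning, 192 of the 241 higher genes had too few UMIs to be compared.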
